A study of Schizosaccharomyces pombe with 12 samples.

Results

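The comparison described here sets fission yeast (Schizosaccharomyces pombe) lacking both med20 and rrp6 against fission yeast lacking rrp6, so that it shows what the loss of Med20 adds where Rrp6 is already missing. It uses 6 of the 12 RNA sequencing samples of the study, 3 of the double mutant med20Δ rrp6Δ and 3 of rrp6Δ; the other samples are med20Δ and wild type. The unit of description is the gene. The difference for each gene was the log2 ratio of double mutant to wild type minus the log2 ratio of rrp6Δ to wild type, taken from the authors' deposited group means and joined on gene identifier, so that the wild-type level drops out. In all 6871 genes could be joined, 5962 of them had all 4 deposited means at 10 or more normalised counts, and 6144 entered a test on the counts of single libraries.

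Mediator is the large complex that links DNA-bound transcription factors to RNA polymerase II, and Med20 is a subunit of its head module, where it binds Med18 and Med8. Rrp6 is the nuclear exonuclease of the RNA exosome. It trims the ends of small nuclear and nucleolar RNAs and degrades antisense, intergenic, meiotic and faulty transcripts, many of them after a short poly(A) tail has been added in the nucleus. Transfer RNAs, the 5S ribosomal RNA and U6 are made by RNA polymerase III and normally carry no long poly(A) tail.

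The double mutant was labelled med20:natMX rrp6Δ::KanMX6 leu1-32 ura4-D18, with no mating type given, and its 3 samples carry the ura4 allele numbers D18, D19 and D20. The rrp6Δ strain was of mating type h- and carried the alleles ura4 DS/E 216, his2, leu1-32 and rrp6Δ::KanMX6, with a ura marker inserted at otr1R, the outer repeat of centromere I. Both groups therefore share the rrp6 deletion and leu1-32, while med20, ura4, his2 and the centromeric insertion differ between them, and an effect of Med20 loss and an effect of those other alleles cannot be told apart. For the comparison with Med20 loss in cells that have Rrp6, the med20Δ strain was labelled h+ leu1-32 ura4-D18 med20:NAT and the wild type h- 972, 973 and 974. All strains grew in liquid yeast extract medium to log phase. RNA was selected on oligo(dT) beads and sequenced with strand-marked libraries, so for an RNA that normally lacks a tail its amount and the share of it with a tail, or retained without one, cannot be told apart.

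Recovered counts per library ran over all 12 libraries between 8096793 and 11588231. Values below are normalised counts, given for libraries 1, 2 and 3 of each strain, whose numbers are not tied to the replicate letters of the samples. The lowest value listed for any gene is 1 count in a library, here called the floor. Apart from strain checks, genes named by the rule given under the processing were required to be called and without overlap between strains. Their lack of overlap below is therefore no further support. In each strain 1 library stood apart on the third principal component, which held 14.3% of the variance: library 2 of the double mutant, library 2 of rrp6Δ, library 1 of med20Δ and library 1 of wild type. The deviations of these 4 from their strain means correlated at 0.417 to 0.678 with each other over 6 pairs, as a description across genes. Of the deleted genes, rrp6 was at 1.99, 0.892 and 0.928 in the double mutant, against 0.835, 2.86 and 0.950 in rrp6Δ, and med20 was at 31.9, 20.5 and 26 in the double mutant, against 667, 546 and 573 in rrp6Δ. The strain labelled med20Δ averaged 4.92 for med20. The same strain averaged 2401 for ura4, against 2199 in wild type, although its label gives ura4-D18, so that it went against this part of its label.

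The tRNA genes stood out most as a class, and the sequences of the genes with the clearest or the highest levels are shown here first. They were copied from RefSeq assembly ASM294v3 by locus tag, as DNA from 5′ to 3′ with any intron removed and without the added end, and capitals mark the B box, the internal promoter element GGTTCGA, any 2 bases and CC, that the RNA polymerase III factor TFIIIC binds.
SPCTRNATHR.10: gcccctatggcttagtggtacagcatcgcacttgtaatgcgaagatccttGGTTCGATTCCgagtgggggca
SPATRNAILE.02: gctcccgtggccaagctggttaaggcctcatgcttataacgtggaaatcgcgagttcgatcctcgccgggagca
SPCTRNAASN.05 and SPBTRNAASN.01: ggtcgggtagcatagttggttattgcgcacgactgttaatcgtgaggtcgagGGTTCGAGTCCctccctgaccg
SPBTRNAGLY.03, SPBTRNAGLY.06, SPBTRNAGLY.07 and SPBTRNAGLY.08: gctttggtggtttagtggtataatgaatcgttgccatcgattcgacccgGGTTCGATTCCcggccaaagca
The first is a tRNA-Thr gene, the second a tRNA-Ile gene without the exact motif, the third the sequence shared by a pair of tRNA-Asn genes among 5 copies, and the fourth a sequence that 8 tRNA-Gly copies share. All 164 tRNA genes of the tables matched RefSeq. They hold 64 different sequences, and 32 genes have a sequence of their own. Since copies with 1 sequence cannot be separated inside the gene and no source used here gives the authors' treatment of reads with several matches, the level of 1 copy is uncertain.

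In the double mutant tRNA genes took 1252, 294 and 773 CPM (counts scaled to 1000000 per library), against 49.5, 33.3 and 42.2 in rrp6Δ. Every double mutant library lay above every rrp6Δ library, and the lowest was library 2, which stands apart. In rrp6Δ these sums were close to the floor, which by itself gave 14.2 to 18.4 CPM for this class. Above the floor were 159, 124 and 154 of the 164 genes in the double mutant libraries, against 61, 44 and 49 in the rrp6Δ libraries. All double mutant libraries were above all rrp6Δ libraries for 114 of the 164 genes and below them for 0. Many of the 164 were too low to be tested, and with rrp6Δ near the floor there was little room below. Of the 42 tRNA genes tested 39 separated upward, where 15.6% of all genes tested did. The median gene averaged 10.2 in the double mutant and 1.19 in rrp6Δ.

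A mean of 10 or more was reached by 83 tRNA genes in the double mutant and by 5 in rrp6Δ. As no tRNA gene had all 4 deposited means at 10 or more, no fold of library means is given for a single one. Fitted log2 values of tRNA genes given elsewhere are descriptions. By limma with Benjamini-Hochberg adjustment 38 of the 42 that could be tested were called higher and 0 lower, where 5.34% of all genes tested were called higher. These 42 passed the minimum mean through their level in the double mutant, and their count is a description.

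SPCTRNATHR.10 was at 2339, 36.6 and 1180 in the double mutant, against 13.4, 0.955 and 10.4 in rrp6Δ. Its double mutant libraries spread widely, with the lowest in the library that stands apart, yet none reached down to rrp6Δ. SPATRNAILE.02 was at 311, 786 and 200.4 in the double mutant, against 21.7, 55.4 and 14.2 in rrp6Δ. Here library 2 was the highest of both strains, the opposite order to the tRNA-Thr gene. SPCTRNAASN.05 was at 654, 72.3 and 432 in the double mutant, against 43.4, 3.82 and 28.5 in rrp6Δ, and SPBTRNAASN.01 with the same sequence at 246, 211 and 288 in the double mutant, against 18.4, 10.5 and 10.4 in rrp6Δ. These copies had no overlap between strains. The other copies of this sequence, SPBTRNAASN.02, SPBTRNAASN.03 and SPCTRNAASN.06, averaged 27.6, 5.77 and 1.13 in the double mutant, each against 0.913 in rrp6Δ. SPCTRNAASN.06 overlapped between strains.

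Of the tRNA-Gly copies printed, SPBTRNAGLY.03 was at 230.0, 55.3 and 170 in the double mutant, against 2.50, 0.955 and 0.950 in rrp6Δ. SPBTRNAGLY.07 was at 94.4, 41.0 and 64.0 in the double mutant, with all rrp6Δ libraries at the floor. SPBTRNAGLY.06 was at 74.4, 28.5 and 57.5 and SPBTRNAGLY.08 at 92.4, 47.3 and 57.5 in the double mutant, and in rrp6Δ both lay at or near the floor. The copies printed were the highest of this sequence. The others, SPATRNAGLY.01, SPCTRNAGLY.11, SPATRNAGLY.02 and SPCTRNAGLY.10, averaged 17.9, 15.1, 2.26 and 1.05 in the double mutant, each against 0.913 in rrp6Δ. SPCTRNAGLY.10 overlapped between strains. Copies of 1 sequence thus differed in listed level within the same double mutant libraries.

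Summed by amino acid, tRNA-Thr genes were at 2577, 84.8 and 1380 in the double mutant, against 26.7, 10.5 and 27.5 in rrp6Δ. tRNA-Gly genes were at 613, 244 and 433 in the double mutant, against 11.7, 12.4 and 11.4 in rrp6Δ. The higher level was spread over the amino acids, and the fewest genes with separated libraries were found for cysteine, with 0 of 3, and tryptophan, with 1 of 3. That exact motif, searched on both strands, was found in 93 of the 164 tRNA genes (56.7%) on the transcribed strand and in 2 on the other. Libraries separated upward for 74 of the 93 genes with the motif and for 40 of the 71 without it, and the median levels were 14.7 in the double mutant and 0.913 in rrp6Δ with the motif, and 8.48 in the double mutant and 1.23 in rrp6Δ without it. Of the 43 genes with an intron 32 separated upward, and of the 121 without one 82 did. These shares are descriptions over genes that share sequences, and a missing match says only that these letters are not in the gene.

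Other classes of small structured RNA had higher mean levels in the double mutant, with overlap between libraries for some. The 39 rRNA genes with recovered counts, of 46 in the tables, took 1813, 563 and 1065 CPM in the double mutant, against 752, 125 and 788 in rrp6Δ, and these ranges overlap, with library 2 the lowest of each strain. Between the libraries that stand apart the values were 563 in the double mutant and 125 in rrp6Δ, and the other libraries of the double mutant, 1813 and 1065, lay above those of rrp6Δ, 752 and 788. limma called 11 of the 38 rRNA genes tested higher and 0 lower, where 5.34% of all genes tested were called higher. Among these 38 genes 19 averaged under 10 in rrp6Δ, so this count is a description. The 5S gene SPRRNA.14 was at 74.4, 67.8 and 79.8 in the double mutant, against 11.7, 4.77 and 8.55 in rrp6Δ. SPRRNA.03, another 5S gene, was at 104, 69.6 and 118 in the double mutant, against 20.9, 16.2 and 11.4 in rrp6Δ. Neither overlapped. The class count was 33 with the library that stands apart as a covariate and 33 without the 4 such libraries, both added after seeing the data. It was 3 without library 1 of the double mutant, 3 without library 3 of rrp6Δ and between 4 and 5 without library 3 of the double mutant or library 1 or 2 of rrp6Δ. The 5S genes repeat 1 sequence, so their copies are uncertain as for tRNA.

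**Figure D1:**
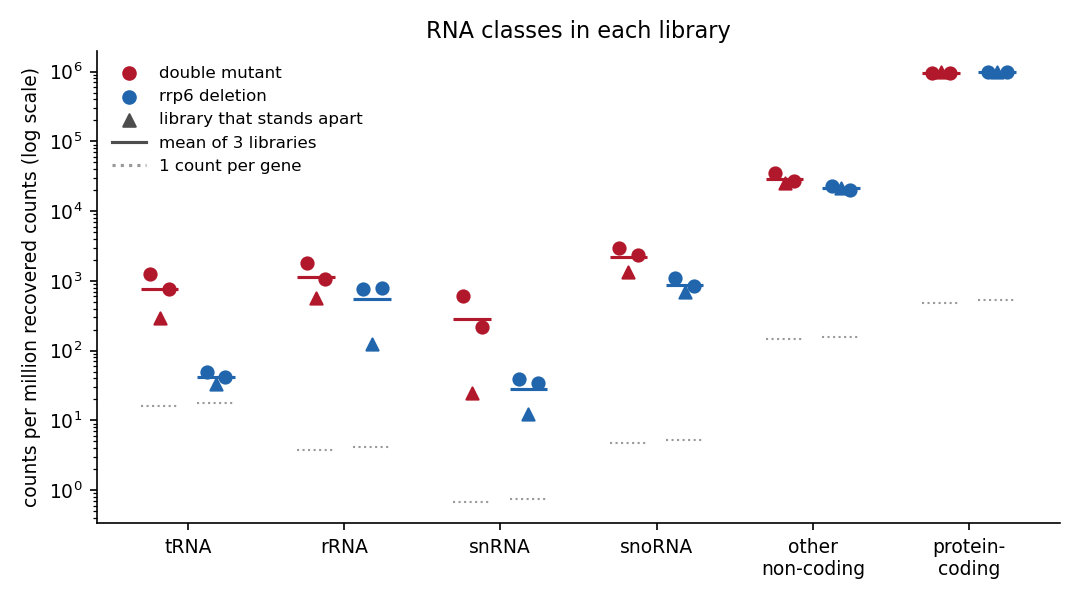
CPM (log scale) for each RNA class in each library, double mutant in red and rrp6 deletion in blue, with bars at the mean of 3 libraries, triangles for the library that stands apart and dotted lines for the sum that 1 count per gene would give. tRNA and snoRNA libraries of the double mutant lie above those of the rrp6 deletion, whereas rRNA and snRNA libraries overlap.

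The spliceosomal and U3 RNAs showed the same wide spread. The class took 610, 24.7 and 216 CPM in the double mutant, against 39.0, 12.2 and 34.7 in rrp6Δ, and its libraries overlap. Called higher by limma were 3 of the 7 genes, U2, U4 and U5, with adjusted p = 0.0191, 0.0231 and 0.00517, and 0 were called lower. Of all genes tested 5.34% were called higher. Among the 7 genes 3 averaged under 10 in rrp6Δ, so this count is a description. The U2 gene snu2 was at 209, 41.9 and 126 in the double mutant, against 10.9, 2.86 and 4.75 in rrp6Δ. The U5 gene snu5 was at 98.4, 7.14 and 29.7 in the double mutant and at the floor in every rrp6Δ library. The snu4 gene for U4 was at 163, 23.2 and 55.7 in the double mutant, against 7.51, 17.2 and 7.60 in rrp6Δ. In these genes the strains did not overlap, and library 2 was the lowest of the double mutant. The U6 gene snu6, the only one of them made by RNA polymerase III, was at 89.1, 9.81 and 101 in the double mutant, against 134, 3.82 and 165 in rrp6Δ (limma, adjusted p = 0.991). The class count was 6 without library 2 of the double mutant, 1 or 2 without any other single library, and 6 with the library that stands apart as a covariate or without the 4 such libraries.

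Small nucleolar RNAs guide the modification and processing of ribosomal RNA. As a class they took 2994, 1348 and 2345 CPM in the double mutant, against 1099, 703 and 854 in rrp6Δ, without overlap. Of 50 genes 32 were tested, and limma called 7 higher and 0 lower, where 5.34% of all genes tested were higher. Among these 32 genes 3 averaged under 10 in rrp6Δ, so this count is a description. The median log2 difference was 0.81, against 0.03 over all genes tested. snoR69b was at 6346, 3807 and 5130 in the double mutant, against 400, 285 and 389 in rrp6Δ. Its difference of 3.81 ± 0.38 (log2, standard error) had a limma adjusted p of 5.56e-05. sno20 was at 1323, 546 and 949 in the double mutant, against 192, 154 and 105 in rrp6Δ, a 6.25-fold higher library mean. snoU14, which acts in the cleavage of pre-ribosomal RNA, was 2.41-fold and snoR61 2.66-fold higher by library means. The call for snoR61 was lost under 6 alternatives, 5 of which left out 1 library. The class count was 9 without library 2 of the double mutant, 4 without any other single library, and 13 with the library that stands apart as a covariate or without the 4 such libraries, which also gave 1 lower call.

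The RNA subunits of a pair of related nucleases were among the clearest single RNAs. mrp1, the RNA of RNase MRP, which cleaves pre-ribosomal RNA, was at 3733, 2091 and 2928 in the double mutant, against 114, 94.5 and 104 in rrp6Δ. The libraries lay far apart, and their means differed 28.0-fold (log2 4.76 ± 0.46 standard error, limma adjusted p = 5.49e-05). The next gene in RefSeq is that of the box C/D RNA snoZ16, at 215, 99 and 191 in the double mutant, against 19.2, 2.86 and 13.3 in rrp6Δ. rrk1, the RNA of RNase P, which removes the leader of tRNA precursors, was at 3143, 1352 and 1463 in the double mutant, against 194, 203 and 289 in rrp6Δ (log2 3.03 ± 0.40 standard error, limma adjusted p = 0.000546). snoZ16, rrk1, SPRRNA.14 and the tRNA and snRNA genes, and in what follows genes named as not called or as neighbours, were chosen after their values were seen.

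Over all genes tested limma called 328 higher (5.34%) and 202 lower (3.29%) in the double mutant at an adjusted p under 0.05. For 529 of these 530 the strains did not overlap, which adds little to the call itself. Of all genes tested, called or not, 15.6% separated upward and 12.1% downward. Together the calls were 8.63% of the genes tested, and 404 of them reached a log2 difference of 1 in size. By class 177 protein-coding genes were called higher and 149 lower of 4833 tested, and 92 long or other non-coding RNAs were called higher and 53 lower of 1192 tested. Of the genes tested in these classes 35 and 65 averaged under 10 in rrp6Δ. From the deposited means, which carry no replicate error, 283 of 5962 genes were at least 1 log2 unit higher (4.75%) and 233 at least 1 lower (3.91%). The median was 0.03 in the limma values and -0.07 in the deposited differences. For 423 called genes with all 4 deposited means at 10 or more, the sign was the same in both. The counts rest on single libraries: without library 1 of the double mutant 148 were higher and 95 lower, without library 1 of rrp6Δ 208 and 109, and without library 3 of rrp6Δ 140 and 79. Without the 4 libraries that stand apart 621 were higher and 442 lower.

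**Figure D2:**
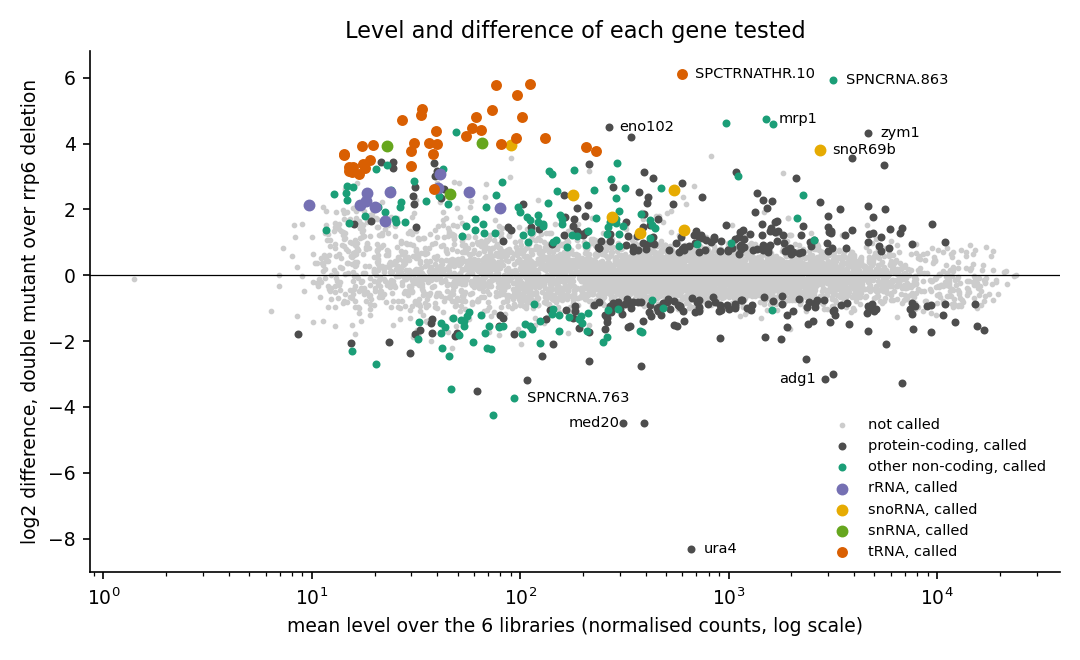
Each point is a gene tested, with its mean level over the 6 libraries (normalised counts, log scale) and its log2 difference, double mutant over rrp6 deletion. Coloured points were called by limma; the tRNA genes called lie between log2 differences of 2.62 and 6.10, and the lowest point is ura4 at -8.31.

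Among protein-coding genes eno102 and zym1 had the largest positive differences in deposited means. eno102, predicted to encode enolase, was at 800.2, 327 and 391 in the double mutant, against 19.2, 44.9 and 8.55 in rrp6Δ, and its library mean was 20.9-fold higher. All double mutant libraries were well above rrp6Δ (log2 4.50 ± 0.57 standard error, limma adjusted p = 0.000369). pdc201, predicted to encode a pyruvate decarboxylase of fermentation, was at 2467, 497 and 2971 in the double mutant, against 157, 271 and 124 in rrp6Δ. Its library 2 was the lowest of the double mutant and the highest of rrp6Δ, and the libraries that stand apart gave a log2 difference of 0.87, against 4.27 in the others. fbp1, the fructose bisphosphatase of gluconeogenesis that glucose represses, was at 1110, 543 and 643 in the double mutant, against 74.3, 173 and 62.7 in rrp6Δ (log2 2.96 ± 0.39 standard error, limma adjusted p = 0.000546). These were the 3 called higher of 11 tested genes of glycolysis, fermentation and gluconeogenesis (5.34% of all genes tested), with 0 called lower and a median of 0.56. With the library that stands apart as a covariate 5 were called higher, and without the 4 such libraries also 5. Of the 26 genes in that list 14 have means that could not be split into counts and were not tested. Over the 25 members with all 4 deposited means at 10 or more, the median deposited difference was -0.097. The same median over all such genes was -0.07. Of the 26 members 14 had a negative and 12 a positive deposited difference. The hexose transporter ght5 was the 1 called higher of 8 (5.34% of all genes tested), at 8824, 6706 and 5281 in the double mutant, against 2515, 4135 and 2146 in rrp6Δ, a call lost without library 1 of the double mutant or library 1 or 3 of rrp6Δ.

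In the core stress list 6 of 23 tested genes were called higher and 0 lower, against 5.34% and 3.29% of all genes tested; with the library that stands apart as a covariate 10 were higher. Its median was 0.67, against 0.03 over all genes tested. zym1, a metallothionein that binds zinc, was at 13017, 5721 and 7811 in the double mutant, against 601, 405 and 306 in rrp6Δ. No double mutant library came near rrp6Δ (log2 4.31 ± 0.39 standard error, limma adjusted p = 3.66e-05). hsp16, a small heat shock protein, was at 8728, 9466 and 3361 in the double mutant, against 639, 786 and 340.1 in rrp6Δ, with library 3 the lowest of both strains. The glutathione peroxidase gpx1, which removes peroxides, was at 17321, 13420 and 11335 in the double mutant, against 6043, 4925 and 3478 in rrp6Δ. Other stress genes were not called: the catalase ctt1 was at 3374, 6027 and 2135 in the double mutant, against 5014, 6916 and 2702 in rrp6Δ, and atf1, the transcription factor of the stress pathway, had a log2 difference of 0.01 (limma, adjusted p = 0.995).

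The nitrogen starvation list had 2 of 19 genes called higher and 1 lower, where 5.34% and 3.29% of all genes tested were called. isp6, a vacuolar serine protease known from nitrogen starvation, was at 9310, 7901 and 5551 in the double mutant, against 1366, 2131 and 1736 in rrp6Δ (log2 2.11 ± 0.23 standard error, limma adjusted p = 0.000107). psp3, a predicted protease of the same kind, was 3.60-fold higher by library means. pbi2, a predicted inhibitor of vacuolar proteinase B, was at 16415, 7571 and 6695 in the double mutant, against 1078, 960 and 739 in rrp6Δ. isp6 and psp3 are the list's higher calls, and put4, a predicted proline permease, was the 1 called lower, at 112, 108 and 155 in the double mutant, against 427, 385 and 349 in rrp6Δ. The other leading names were mug14, an adducin, at 1171, 261 and 699 in the double mutant, against 104, 61.1 and 47.5 in rrp6Δ, mug108, a gene found only in this yeast, with a 9.02-fold higher library mean, and lsd90 with a 7.92-fold higher one. The call for mug108 was lost without library 1 or 3 of the double mutant or library 1 or 3 of rrp6Δ, and that for lsd90 without library 1 of the double mutant or library 3 of rrp6Δ.

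**Figure D3:**
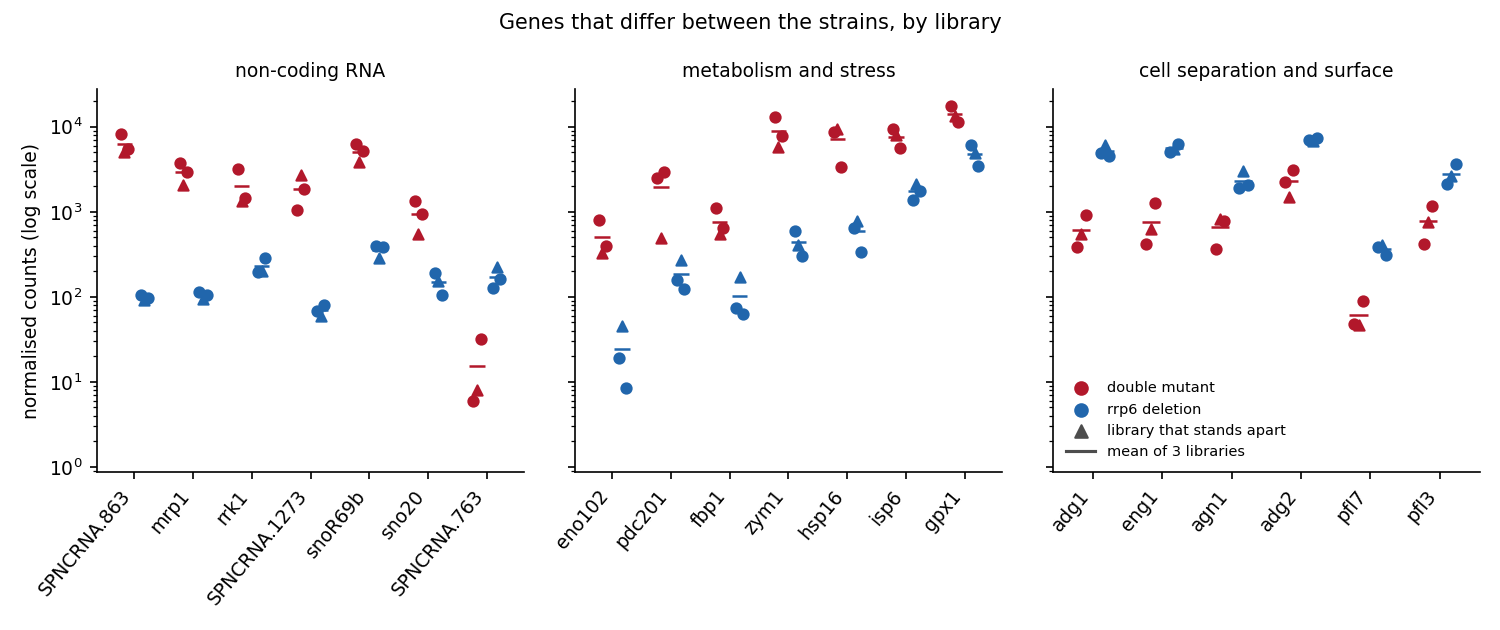
Normalised counts (log scale) of named genes in each library, double mutant in red left of rrp6 deletion in blue, with bars at the mean of 3 libraries and triangles for the library that stands apart. Non-coding RNAs other than SPNCRNA.763 and the metabolism and stress genes are higher in the double mutant, and the cell separation and surface genes are lower.

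Genes for the splitting of daughter cells formed the protein-coding list with the largest share of calls: 8 of 10 were lower in the double mutant and 0 higher, where 3.29% of all genes tested were lower, and the median log2 difference was -1.57. eng1, the beta-glucanase that dissolves the primary septum, was at 415, 633 and 1252 in the double mutant, against 5050, 5418 and 6253 in rrp6Δ. The highest double mutant library was below the lowest of rrp6Δ (log2 -3.01 ± 0.36 standard error, limma adjusted p = 0.000236). agn1, the alpha-glucanase that opens the surrounding wall, was at 368, 821 and 775 in the double mutant, against 1884, 3030 and 2065 in rrp6Δ.

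Other genes of the late separation step were lower too. adg1, listed with no known product, was at 388, 545 and 913 in the double mutant, against 4929, 6175 and 4506 in rrp6Δ, an 8.46-fold higher library mean in rrp6Δ. adg2 was at 2258, 1504 and 3061 in the double mutant, against 6897, 6822 and 7429 in rrp6Δ. cfh4, a predicted chitin synthase regulator, was at 872, 986 and 954 in the double mutant, against 2517, 3642 and 2428 in rrp6Δ. adg3, a predicted beta-glucosidase, and mid2, which organises septins at the division site, were also called lower, with log2 differences of -1.43 and -1.38. sep1, a forkhead transcription factor of this step, was at 1562, 2576 and 1597 in the double mutant, against 1323, 2598 and 1453 in rrp6Δ, with overlap (limma, adjusted p = 0.840). The count in this list was 5 without library 1 of the double mutant, without library 2 of rrp6Δ and without library 3 of rrp6Δ.

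In the flocculation list 3 of 14 genes were called lower (3.29% of all genes tested), all predicted cell surface glycoproteins, and 0 higher. This count was 2 without library 1 of the double mutant or library 1 or 3 of rrp6Δ, which in each case cost pfl6 its call. pfl7 was at 48.5, 46.4 and 90.0 in the double mutant, against 388, 407 and 308 in rrp6Δ (log2 -2.61 ± 0.30 standard error, limma adjusted p = 0.000177). pfl3 was at 415, 768 and 1155 in the double mutant, against 2134, 2642 and 3620 in rrp6Δ, and pfl6 at 14.6, 20.5 and 24.1 in the double mutant, against 61, 45.8 and 57.9 in rrp6Δ. None of the 3 overlapped between strains, as the naming rule required.

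Of the lowest protein-coding genes, SPAC1039.02, predicted to encode a phosphatase, was at 803, 1565 and 1519 in the double mutant, against 9321, 16926 and 10651 in rrp6Δ. SPCP20C8.02c, a member of a family found only in this yeast, was at 21.9, 22.3 and 17.6 in the double mutant, against 212, 204 and 171 in rrp6Δ. Their log2 differences were -3.26 and -3.19, and neither overlapped, as the naming rule required. SPBPB7E8.01, without a known product, was at 687, 625 and 724 in the double mutant, against 4441, 4309 and 3314 in rrp6Δ. cbm1, which holds a cellulose-binding domain, was at 1838, 2793 and 1883 in the double mutant, against 9849, 10436 and 7435 in rrp6Δ. SPBPB10D8.01, a predicted cysteine transporter, was at 47.9, 89.2 and 174 in the double mutant, against 435, 925 and 607 in rrp6Δ. Its RefSeq neighbour SPBPB10D8.02c, a predicted arylsulfatase that overlaps it, was at 5.98, 6.24 and 17.6 in the double mutant, against 118, 145 and 78.8 in rrp6Δ. Since no source used here gives the strand setting of the counting, reads of such overlapping genes cannot be told apart.

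Genes near the chromosome ends moved in both directions. Of 101 tested subtelomeric genes 16 were called higher and 8 lower, where 5.34% and 3.29% of all genes tested were called, and the median log2 difference was 0.70, against 0.03 over all genes tested. Of these 101 genes 19 averaged under 10 in rrp6Δ. Among them gal10, a predicted enzyme of galactose use, was at 467, 341 and 228 in the double mutant, against 93.5, 56.3 and 78.8 in rrp6Δ. SPBC1348.07, of a family found only in this yeast, was at 344, 279 and 211 in the double mutant, against 105, 61.1 and 89.3 in rrp6Δ. Neither gene overlapped between strains, as the naming rule required. Lower were SPCC1884.01, at 19.9, 17 and 25 in the double mutant, against 71.0, 78.3 and 79.8 in rrp6Δ, and SPCC569.02c, at 21.3, 8.92 and 16.7 in the double mutant, against 62.6, 34.4 and 55.1 in rrp6Δ. The number called higher was 8 without library 1 of the double mutant or library 3 of rrp6Δ, 25 without library 2 of the double mutant, 36 with the library that stands apart as a covariate and 32 without the 4 such libraries.

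Of 107 tested genes named for their rise in meiosis 10 were called higher and 3 lower, with a median log2 difference of 0.14; of all genes tested 5.34% were higher and 3.29% lower. meu10, an ascospore wall protein, was at 729, 575 and 708 in the double mutant, against 133, 147 and 154 in rrp6Δ (log2 2.20 ± 0.30 standard error, limma adjusted p = 0.000627). mug147 was at 1166, 555 and 371 in the double mutant, against 172, 135 and 71.2 in rrp6Δ. mug125, meu34 and mug64 were called lower, at log2 differences of -0.80, -0.93 and -0.75, calls that were lost under 8, 5 and 5 of the 15 alternatives. The number called higher in this list was 3 without library 1 of the double mutant, 4 without library 1 of rrp6Δ and 2 without library 3 of rrp6Δ, and 18 with the library that stands apart as a covariate. The number called lower was 0 without library 1 of the double mutant or any library of rrp6Δ, 2 without library 3 of the double mutant, 9 with that covariate and 5 without the 4 such libraries. Of 11 targets of Mmi1, the protein that directs meiotic transcripts to the exosome, limma called 0, with 2 higher and 0 lower at an unadjusted p under 0.05 and 1 called with voom weights.

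The largest positive difference among genes with all 4 deposited means at 10 or more was that of a long non-coding RNA. SPNCRNA.863, an intergenic RNA, was at 8224, 5018 and 5521 in the double mutant, against 104, 92.6 and 97.8 in rrp6Δ. The strains were far apart relative to the spread within each, and the library means differed 63.6-fold (log2 5.94 ± 0.29 standard error, limma adjusted p = 3.41e-08). SPNCRNA.862, which RefSeq lists as overlapping it, was at 278, 138 and 299 in the double mutant, against 176, 168 and 148 in rrp6Δ, with overlap. SPNCRNA.1273, an antisense RNA, was at 1047, 2705 and 1844 in the double mutant, against 67.6, 59.2 and 80.7 in rrp6Δ. The gene it overlaps, ski3 of the cytoplasmic exosome's helper complex, had a log2 difference of 0.36. SPNCRNA.727 was at 4047, 2159 and 3205 in the double mutant, against 137, 124 and 115 in rrp6Δ. mrp1 had nearly the levels of SPNCRNA.727, with 3733, 2091 and 2928 in the double mutant, against 114, 94.5 and 104 in rrp6Δ. Whether both count the same RNA was not tested. SPNCRNA.1020 was at 535, 485 and 562 in the double mutant, against 72.6, 29.6 and 54.1 in rrp6Δ.

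Of 606 antisense RNAs tested 48 were called higher and 38 lower, of 400 intergenic RNAs 26 and 14, and of 186 other non-coding RNAs 18 and 1; of all genes tested 5.34% were higher and 3.29% lower. Averaging under 10 in rrp6Δ were 24 of the antisense, 16 of the intergenic and 25 of the other RNAs tested. Such genes can pass the minimum mean through the double mutant, which favours higher calls, so these counts are descriptions. Whether the classes differ from each other was not tested. SPNCRNA.763, an antisense RNA, was the lowest that the naming rule gave, at 5.98, 8.03 and 31.5 in the double mutant, against 125, 226 and 163 in rrp6Δ. SPNCRNA.761, SPNCRNA.1609 and SPNCRNA.1334 were also lower, by log2 differences of -2.24, -2.22 and -1.93. SPNCRNA.1379 was at 7.31, 25.9 and 7.42 in the double mutant, against 56.8, 138 and 37.0 in rrp6Δ, and overlaps pfl3. SPNCRNA.1298 was at 28.6, 23.2 and 18.6 in the double mutant, against 100.2, 86.9 and 157 in rrp6Δ, and overlaps SPCC569.02c. In both pairs the overlapping gene was lower too. Over all 1192 tested, 45 were higher and 29 lower without library 1 of the double mutant, 64 and 26 without library 1 of rrp6Δ, and 38 and 25 without library 3 of rrp6Δ. With the library that stands apart as a covariate 179 were higher and 127 lower, and without the 4 such libraries 135 and 88.

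Lists for growth and the cell cycle showed smaller differences. Of 19 cytosolic tRNA ligase genes 17 had negative differences, with a median of -0.67, and 3 were called lower (3.29% of all genes tested). This count was 1 without library 1 of the double mutant or library 2 of rrp6Δ, 2 without library 1 and 0 without library 3 of rrp6Δ, 7 without library 2 of the double mutant, 11 with the library that stands apart as a covariate and 5 without the 4 such libraries. nrs1, which loads asparagine, was at 3859, 5364 and 5546 in the double mutant, against 9501, 9056 and 10970 in rrp6Δ (log2 -1.01 ± 0.21 standard error, limma adjusted p = 0.00847). lrs1 for leucine and SPAC29E6.06c for cysteine had log2 differences of -0.85 and -0.71, and their calls were lost under 5 and 6 of the 15 alternatives. Of 84 ribosome biogenesis genes 74 were negative with a median of -0.38, and limma called 1 higher and 1 lower, gar2, a nucleolar protein, and dbp10, a helicase, at log2 differences of 0.83 and -0.82. At an unadjusted p under 0.05 these counts were 3 and 28. The number called lower was 3 without library 2 and 6 without library 3 of the double mutant, 0 without library 1 of the double mutant or library 1 or 3 of rrp6Δ, 19 with the library that stands apart as a covariate and 6 without the 4 such libraries. The call of gar2 was lost without library 1 of rrp6Δ and with the 6 libraries alone, and that of dbp10 under 4 alternatives. Of 52 ribosomal protein genes that could be tested 0 were called, with 3 higher and 3 lower at an unadjusted p under 0.05 and 1 called lower with voom weights. With the library that stands apart as a covariate 3 were called higher and 4 lower, without the 4 such libraries 1 higher and 2 lower, and without library 2 of the double mutant 1 was lower. The ribosomal protein list has 141 members, and 89 of them could not be split into counts. Over all 141 the median deposited difference was -0.30, with 111 negative and 30 positive. The median over all genes with such means was -0.07.

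In the MBF list, the genes switched on at the start of DNA synthesis, 3 of 16 were called lower (3.29% of all genes tested). This count was 5 without library 2 of the double mutant, 2 without library 1 of the double mutant or library 1 or 2 of rrp6Δ, 7 with the library that stands apart as a covariate and 6 without the 4 such libraries. cdc22, the large subunit of ribonucleotide reductase, was at 3517, 6269 and 4376 in the double mutant, against 9528, 12597 and 9353 in rrp6Δ. The checkpoint kinase mik1 and the replication checkpoint mediator mrc1 had log2 differences of -0.94 and -0.80, and the call of mrc1 was lost under 7 of the 15 alternatives. Single members were called lower in other lists, namely the histone gene hht1 (-0.89), the kinesin klp5 (-0.74) and rgs1, which dampens the pheromone signal (-0.74). These calls were lost under 6, 4 and 7 of the 15 alternatives, that of rgs1 when any single library of either strain was left out. urg1, a gene that uracil regulates, was called higher, at 475, 667 and 381 in the double mutant, against 217, 230.1 and 207 in rrp6Δ, a call lost without library 3 of rrp6Δ.

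RNA decay and transcription genes were mostly close to rrp6Δ. mtr4, the helicase of the TRAMP complex, and dis3, the catalytic exonuclease of the exosome core, were called lower, at log2 differences of -0.97 and -0.88, as 2 of the 26 genes for the exosome and its cofactors, where 3.29% of all genes tested were called lower. Their count was 0 without library 1 of the double mutant or library 3 of rrp6Δ, 1 without library 1 of rrp6Δ, 4 with the library that stands apart as a covariate and 3 without the 4 such libraries. Of 21 other Mediator subunits 1 was called higher (5.34% of all genes tested), rox3, which encodes Med19, at 374, 243 and 306 in the double mutant, against 162, 179 and 168 in rrp6Δ. Its call was lost under 7 of the 15 alternatives, among them leaving out any single library other than library 2 of the double mutant. Among 24 genes for RNA polymerase III and its factors limma called 0, with 2 higher and 2 lower at an unadjusted p under 0.05 and 1 called higher with voom weights. Of 25 heterochromatin and RNA interference genes 0 were called, with 0 higher and 2 lower at an unadjusted p under 0.05. All 13 Tf2 retrotransposons had positive differences, from 0.46 to 0.71, with 0 called and 0 at an unadjusted p under 0.05; they share near-identical sequence and their counts are uncertain. In the chaperone list hsp10 of the mitochondria was the 1 called higher of 21 (5.34% of all genes tested), at a log2 difference of 0.89, and its call was lost under 5 of the 15 alternatives.

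**Figure D4:**
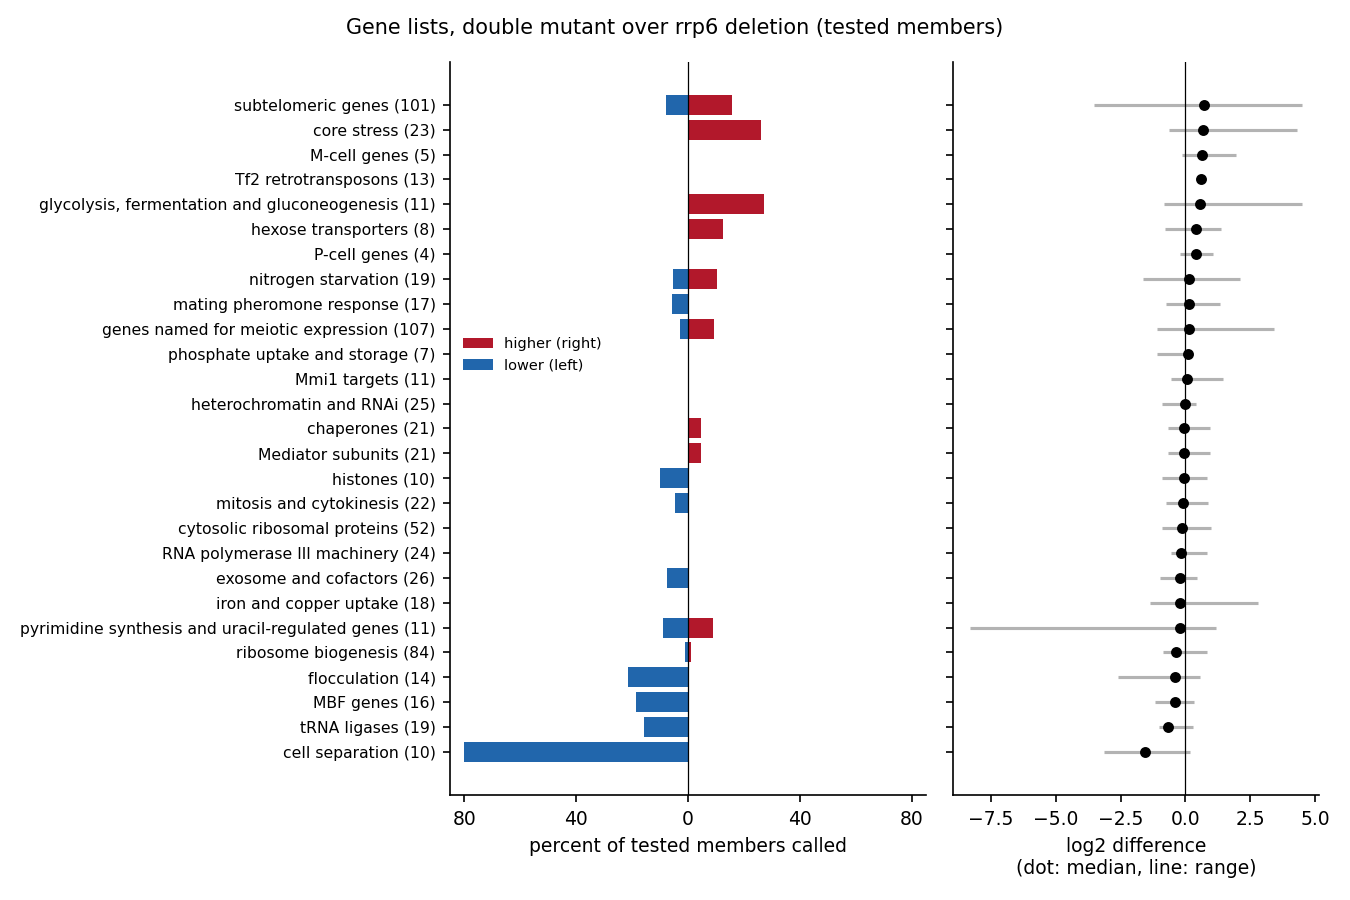
For each gene list, with the number of tested members in brackets, the left panel gives the percent of tested members called higher (right of 0) and lower (left of 0) by limma, double mutant over rrp6 deletion, and the right panel the median (dot) and range (line) of the log2 differences. Cell separation has the lowest median, at -1.57, and 8 of its 10 members called lower.

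Of the labelled strain differences apart from med20, the one at ura4 was visible in the data. ura4 was at 1.99, 5.35 and 2.78 in the double mutant, against 1393, 1193 and 1378 in rrp6Δ. Its neighbours tam14, at 57.8, 22.3 and 41.7 in the double mutant, against 240.5, 188 and 213 in rrp6Δ, and new25, at 39.2, 20.5 and 41.7 in the double mutant, against 765, 785 and 702 in rrp6Δ, were lower as well. his2 had a log2 difference of -1.11 (limma, adjusted p = 0.0555) and leu1 of -0.33 (adjusted p = 0.626). In rrp6Δ, whose label gives his2, this gene averaged 5171, against 5301 in wild type and 2529 in the double mutant. The labelled his2 allele was thus not visible as a lower level. Of 5 genes of M cells and 4 of P cells, the mating types, limma called 0, with 2 and 1 higher at an unadjusted p under 0.05.

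The same loss of Med20 was measured in cells with Rrp6, as med20Δ over wild type, with no library shared between the comparisons. There limma called 266 genes (4.33%), 145 higher (2.36%) and 121 lower (1.97%). Over 6144 genes the log2 differences of the 2 comparisons correlated at 0.576, as a description across genes that are not independent. Of the 530 genes called in the double mutant 490 had the same sign in med20Δ over wild type (92.5%), against 71.5% of all genes tested. Called in both were 139 genes, which is 26.2% of the calls without Rrp6 and 52.3% of those with it, and 138 of them had the same direction. Genes called higher in the double mutant had a median log2 difference of 1.64 there and 0.78 in med20Δ, and those called lower of -1.21 there and -0.70 in med20Δ. These genes were chosen by the first comparison, so its medians are not independent of that choice.

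In the cell separation list 8 genes were called lower in the double mutant over rrp6Δ and 5 in med20Δ over wild type, with median log2 differences of -1.57 and -1.27. adg1 was at -3.15 in the double mutant over rrp6Δ and -2.12 in med20Δ over wild type (test of the difference -1.03 ± 0.44 log2, standard error, limma adjusted p = 0.631), eng1 at -3.01 and -2.51, and agn1 at -1.88 and -1.82. lsd90 was at 2.95 in the double mutant over rrp6Δ and 3.88 in med20Δ over wild type. fbp1 was at 2.96 in the double mutant over rrp6Δ and 0.37 in med20Δ over wild type, and the test of that difference gave 2.58 ± 0.56 (log2, standard error; limma adjusted p = 0.0995). mrp1 was at 4.76 in the double mutant over rrp6Δ and 1.76 in med20Δ over wild type, with an adjusted p of 0.0995 in the limma test of that difference.

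A test of the difference between both effects of Med20 loss called 14 of 6144 genes (0.228%), 9 with a higher (0.146%) and 5 with a lower effect (0.0814%) without Rrp6, and 420 genes had an unadjusted p under 0.05. This count was 5 without library 1 of the double mutant or library 3 of rrp6Δ, 6 without library 3 of the double mutant or library 1 of rrp6Δ, and 26 without library 2 of the double mutant. SPNCRNA.863 had the difference with the lowest adjusted p apart from ura4: it averaged 6254 ± 1724 in the double mutant, 98.3 ± 5.89 in rrp6Δ, 730.1 ± 179 in med20Δ and 472 ± 193 in wild type (SD, n = 3 each), and the log2 differences were 5.94 without Rrp6 and 0.67 with it (limma on the difference, adjusted p = 1.43e-05). The tRNA-Gly genes SPBTRNAGLY.03, SPBTRNAGLY.06, SPBTRNAGLY.07 and SPBTRNAGLY.08 were called as well, with levels near the floor in rrp6Δ, so that their fitted differences depend on the pseudocount. meu10 was at 2.20 in the double mutant over rrp6Δ and -0.09 in med20Δ over wild type. ura4 and new25 were also called, and the alleles at ura4 differ between the strains compared. The other labelled alleles that differ are not the same in both comparisons. For any gene of this test, a role of Rrp6 and one of those alleles cannot be told apart.

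**Figure D5:**
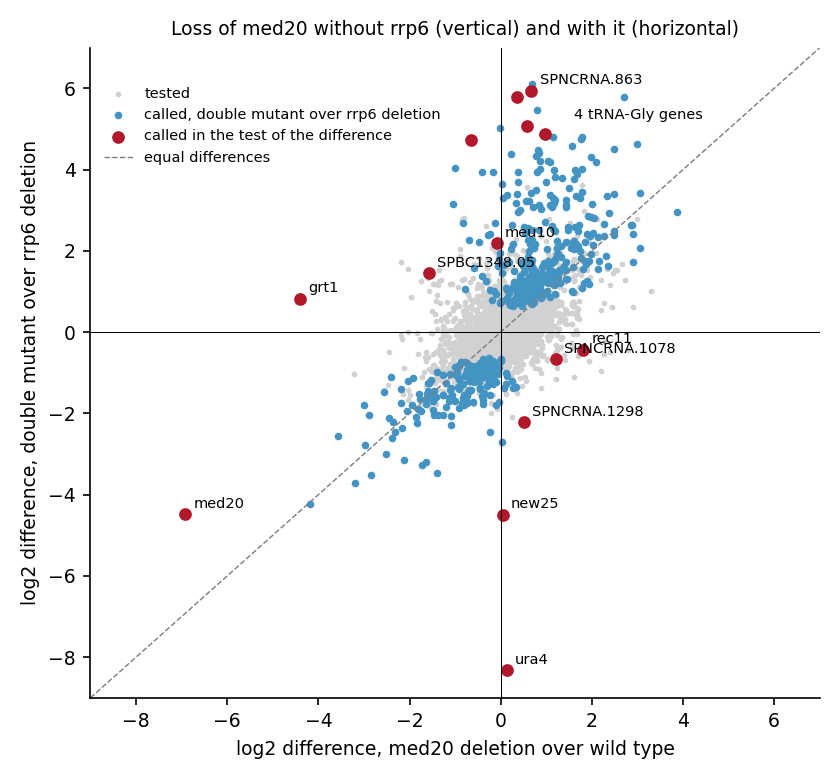
Each point is a gene tested, with the log2 difference of double mutant over rrp6 deletion on the vertical axis and of med20 deletion over wild type on the horizontal axis; the dashed line marks equal differences. Red points are the 14 genes called in the test of the difference, among them SPNCRNA.863 at 5.94 without Rrp6 and 0.67 with it.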

How the data were processed

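Poly(A)-selected RNA of 12 samples was sequenced. Per the submitters' processing notes the tools were Bowtie 0.12.7 and DESeq; no source used here names the genome build, annotation or counter. The authors deposited 1 table per mutant against wild type with group means of normalised signal, their fold ratio, its log2 value and p-values, which were not used for calls. From the digits of the deposited means the whole counts of 3 libraries per group were recovered, for 98.113% of the rrp6Δ and 97.759% of the double mutant means; 189 genes, mostly with high means, were not split and not tested. A count of 1 was the lowest in any library. No count model was used.

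Recovered counts were divided by size factors computed anew from them, as medians of ratios over all libraries. The normalised counts listed per library use these factors, not the deposited scaling. With a pseudocount of 1 added they were put on the log2 scale, so fold changes of low genes are understated. Genes with a mean of at least 10 were fitted with limma 3.58.1 (R 4.3.3, mean-variance trend, 4 groups in 1 fit) with Benjamini-Hochberg adjustment, called at 0.05. On simulated data for the double mutant over rrp6Δ with 6127 genes, 92% of 4-fold higher and 40% of 2-fold higher genes were called, and 4 of 5927 unchanged ones. The design names 3 biological replicates without saying that they grew as separate cultures, so a p-value measures only the spread of these samples, which may be technical. Named genes were, among those with all 4 deposited means at 10 or more, called and without overlap, the 8 protein-coding and 6 non-coding genes with the largest difference in each direction, up to 4 snoRNA and rRNA genes, up to 4 called members of each list in each direction, and the strain checks; some genes that this rule names are not reported here. Members, lists and rules were chosen with earlier results of these data known. RefSeq ASM294v3 gave names, neighbours and tRNA sequences by locus tag; 6753 of 6871 identifiers matched. Promoters were not analysed here.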

Additional observations from a re-analysis of the deposited data

Results flagged for a closer look

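The 14 genes below were called in the test of whether losing Med20 has a different effect without Rrp6 than with it (limma, Benjamini-Hochberg adjustment over 6144 genes). Each value is the log2 difference of double mutant over rrp6Δ minus that of med20Δ over wild type.

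SPNCRNA.863, an intergenic RNA, had 5.27 ± 0.40 (standard error; adjusted p = 1.43e-05), and the call held in 14 of 14 alternatives. Without Rrp6 its difference was 5.94, with Rrp6 it was 0.67.

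A group of tRNA-Gly genes of 1 sequence was also called: SPBTRNAGLY.03 with 5.42, SPBTRNAGLY.06 with 5.39, SPBTRNAGLY.07 with 4.48 and SPBTRNAGLY.08 with 3.90, called in 9, 13, 8 and 7 of 14 alternatives. In rrp6Δ they were at or near the floor, so that their fitted values depend on the pseudocount and are no bound. They passed the minimum mean only through the double mutant, so these calls and their numbers of alternatives are a description.

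Positive values were also found for grt1, a predicted transcription factor, with 5.22 (adjusted p = 0.00443, 12 of 14 alternatives), where the difference was 0.82 without Rrp6 and -4.39 with it, at a mean of 9.40 in the double mutant and 5.17 in rrp6Δ. grt1 averaged 90.6 in wild type and 3.16 in med20Δ, and was already low in rrp6Δ, with a log2 difference of -3.84 from wild type. SPBC1348.05, a predicted membrane transporter, had 3.03, with 1.46 without Rrp6 and -1.57 with it, and was called in 6 of 14 alternatives. meu10 had 2.29, with 2.20 without Rrp6 and -0.09 with it, and was called in 5 of 14. med20 itself had 2.45 and averaged 26.1 in the double mutant, against 4.92 in med20Δ; it was called in 5 of 14 alternatives.

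Negative values were found for ura4 with -8.44 and its neighbour new25 with -4.54, both called in 14 of 14 alternatives; the labelled ura4 alleles and the level of ura4 in med20Δ disagree, as described above. SPNCRNA.1298 had -2.72, with -2.22 without Rrp6 and 0.50 with it. rec11, a meiotic cohesin subunit, had -2.24, with -0.43 without Rrp6 and 1.81 with it. rec11 averaged 12.7 in wild type and 281 in rrp6Δ, a log2 difference of 4.36 between these strains. SPNCRNA.1078 had -1.87. SPNCRNA.1298, rec11 and SPNCRNA.1078 were called in 6, 4 and 6 of 14 alternatives.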

How the results depend on the processing

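Of 80 called genes that the naming rule or the interaction test gave, 70 could be tested under all 15 alternatives and 47 of these kept their call under all; 5 more kept it wherever they were tested, 28 lost it under at least 1, and 0 changed sign. Leaving out 1 library gave 140 to 372 genes higher and 79 to 261 lower, 58 to 119 list members higher and 17 to 41 lower (99 and 34 with all libraries), and 5 to 26 genes in the interaction test. The library that stands apart as a covariate, added after seeing the data, gave 837 higher and 623 lower, 192 and 95 list members and 70 interaction calls; without those 4 libraries the counts were 621, 442, 169 and 62. With no minimum mean 170 list members were higher and 35 genes were in the interaction test, and with a mean of at least 50 these were 46 and 3. The interaction test called 23 genes with a pseudocount of 8, 8 with upper quartile scaling and 6 with voom weights. The 6 libraries alone gave 22 list members lower. With all 4 deposited means at 50 or more, 165 genes were at least 1 higher and 150 at least 1 lower. The cause of these changes was not tested. No paired analysis was possible because the recovered libraries carry no replicate letter. Genes near the floor in rrp6Δ, tRNA above all, have levels limited by depth.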
